A study of Homo sapiens with 16 samples.

Results

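CASC19, CASC8, POU5F1B, MYC and PVT1 are neighbours on the long arm of chromosome 8, in the band 8q24, and their RNA was followed in OVCAR3 and UWB1.289 with and without olaparib. These 5 genes were selected by symbol from the 59428 genes of the count table, as MYC and genes around it, noncoding except for POU5F1B. They were chosen by measured values, since CASC19 had been seen to be higher with olaparib in both lines, so their olaparib differences are given below as a description and without a test. CASC19, CASC8, MYC and PVT1 passed the filter on low counts in each comparison, whereas POU5F1B did not pass in any.

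OVCAR3 and UWB1.289 are serous ovarian carcinoma cell lines. OVCAR3 has wild-type BRCA1 and was grown in RPMI medium with serum and insulin, and UWB1.289 carries a deleterious BRCA1 mutation and was grown in a mixture of MEGM and RPMI medium with less serum. Each line received olaparib, an inhibitor of the PARP enzymes that sense DNA strand breaks, or its solvent DMSO for 96 h. OVCAR3 received 7.5 µM and UWB1.289 3.5 µM olaparib, so the part of the dose in a difference between the lines, like that of the medium or of BRCA1, cannot be told apart from the line itself. Each of the 4 groups had 4 replicates (16 libraries), described as repeats of the treatment, and nothing in the labels says that they came from separate cultures, so p-values measure only the spread between these samples. Libraries were of the QuantSeq type, which reads the 3′ ends of polyadenylated RNA, and held between 5599571 and 7730228 counts. The epithelial markers PAX8, KRT7, KRT8, KRT18, EPCAM and MUC16 were detected in every library, whereas WT1, a further marker of serous carcinoma, had 3107 counts over the 4 OVCAR3 DMSO libraries and 0 over the 4 UWB1.289 DMSO libraries. Of the markers of other cell types, LUM was at 0 in every library and CD3E and DCN had at most 1 count in any library, but PTPRC reached 69 counts, CDH5 39 and PECAM1 36 in a UWB1.289 library, and COL1A1 268 in an OVCAR3 library. The part of these markers in the results below was not tested.

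MYC encodes a transcription factor that pairs with MAX, binds the E-box CACGTG and raises the expression of genes for ribosome production, metabolism and cell division. It lies in a stretch of chromosome with few other protein-coding genes but with many enhancers, some of which act on MYC over long distances and respond to Wnt and TCF factors, and with several long noncoding RNA genes that are transcribed from the same region. PVT1, directly downstream, is often amplified together with MYC in tumours of the ovary. POU5F1B is a retrogene, that is, a copy made from the RNA of POU5F1 (OCT4), the pluripotency factor.

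In GRCh38 with the annotation of GENCODE release 44, CASC19 spans bases 127072694 to 127227541 of chromosome 8 on the minus strand and starts 508 kb before MYC. CASC8 (127289808 to 127482139) is also on the minus strand and starts 253 kb before MYC, and POU5F1B (127322183 to 127420066) lies inside the span of CASC8 on the plus strand. MYC occupies 127735434 to 127742951 and PVT1 127794526 to 128187101, both on the plus strand, with the start of PVT1 59.1 kb after that of MYC. The CASC19 row of the count table cannot be assigned to 1 transcript. Of its release 44 exon bases, 15.6% lie in the RefSeq span of CASC19, 12.6% in that of CCAT1 and 4.98% in that of PCAT2. The counts were made with release 38, whose exons were not compared with those of release 44. CCAT1, PCAT2 and CASC21, the last of which covers 16.7% of the exon bases of CASC8, had no rows under these symbols in the count table. MYC shares 194 exon bases with CASC11 on the other strand, and it is not stated whether reads were counted by strand.

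CASC19, a noncoding RNA of the region upstream of MYC, was nearly silent in OVCAR3 with DMSO and present in the 3 other groups. Its counts in OVCAR3 with DMSO were 0, 0, 0 and 1 in replicates 1 to 4, and with olaparib they were 29, 15, 25 and 17. As CPM (counts scaled to a common library size with the TMM method) this was a mean of 0.0359 ± 0.0717 (SD, n = 4) with DMSO and 3.18 ± 1.05 with olaparib. The olaparib libraries all lay above the DMSO libraries. Because the DMSO group held 1 count in total, the ratio of 86 to 1 counts, scaled for depth to 81.2, had a 95% interval from 14.2 to 3243 (exact, counting error only). In these bulk libraries, fewer cells that express a gene and less RNA per cell cannot be told apart.

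In UWB1.289 the CASC19 RNA was already abundant without the drug and was again higher with it. The 4 DMSO libraries held 13.4, 11.5, 16 and 15.2 CPM and the 4 olaparib libraries 28.7, 29.5, 39.2 and 38.6 CPM. The groups did not overlap, and the log2 difference was 1.28 ± 0.14 (SE), a 2.43-fold higher level with olaparib. The 4 groups of CASC19 thus had separate ranges, in the order OVCAR3 with DMSO, OVCAR3 with olaparib, UWB1.289 with DMSO and UWB1.289 with olaparib, as drawn in the plot of levels by library.

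**Figure D1:**
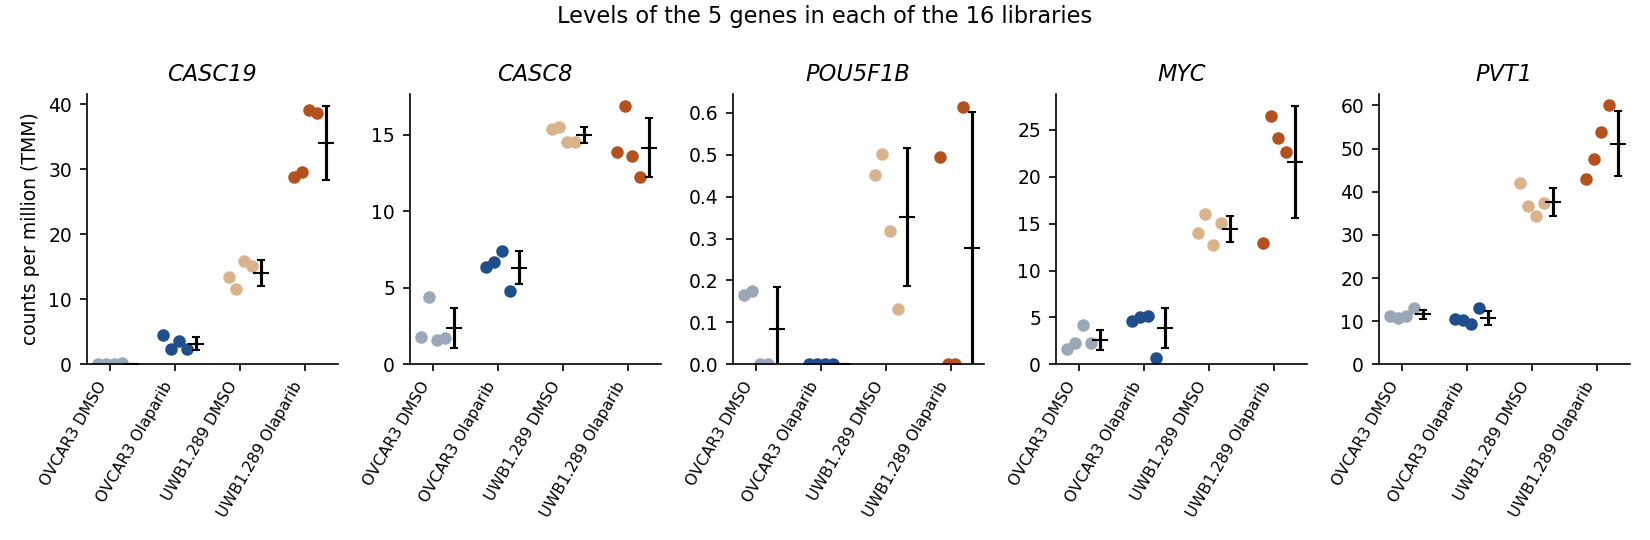
Level of each gene in CPM (TMM, vertical axis, a scale of its own in each panel, starting at 0) in the 16 libraries, with 1 point per library. The bar beside each group is its mean ± SD (n = 4), and a lower end below 0 is not drawn. CASC19 has 4 separate ranges, while POU5F1B stays below 0.7 CPM.

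CASC8, a noncoding RNA transcribed between CASC19 and MYC, had separate olaparib and DMSO values in OVCAR3 and overlapping ones in UWB1.289. It had 1.82, 4.38, 1.59 and 1.72 CPM in OVCAR3 with DMSO and 6.37, 6.71, 7.40 and 4.80 CPM with olaparib. The ranges were separate, although replicate 2 with DMSO (25 counts, against 11 or 12 in the 3 others) stood apart from its group. The log2 difference was 1.44 ± 0.31 and, without that library, 1.88. In UWB1.289 CASC8 had 15.4, 15.5, 14.5 and 14.5 CPM with DMSO and 13.9, 16.9, 13.6 and 12.3 CPM with olaparib. These groups overlapped, and the log2 difference was −0.08 ± 0.15. The olaparib difference of CASC8 in UWB1.289 minus that in OVCAR3 was −1.52 ± 0.32 on the log2 scale.

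POU5F1B was at the limit of detection. Over the 4 libraries of a group it had 2 counts in OVCAR3 with DMSO, 0 in OVCAR3 with olaparib, 9 in UWB1.289 with DMSO and 7 in UWB1.289 with olaparib, and a count of 0 allows up to 3 counts. No olaparib difference was detectable at this depth. Its parent gene POU5F1 had 17 and 26 counts in OVCAR3 and 48 and 58 in UWB1.289, with DMSO and olaparib. In UWB1.289, where POU5F1 could be tested, its log2 difference of 0.41 ± 0.39 did not pass (edgeR quasi-likelihood test, adjusted p = 0.579). The transcripts POU5F1-201 (1409 bases) and POU5F1B-201 (4765 bases) were identical at 1343 of 1371 compared bases (98.0%). Reads from this shared stretch can be split between the 2 genes or be lost, so both rows are uncertain. Where the stretch lies relative to the 3′ end of POU5F1B-201 was not examined. POU5F1B also shares 848 exon bases with PCAT1 on the same strand.

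MYC itself was at a low level in OVCAR3 and at a higher one in UWB1.289. OVCAR3 had 10, 13, 29 and 16 MYC counts with DMSO and 30, 32, 36 and 5 with olaparib, that is, 1.65, 2.28, 4.20 and 2.29 CPM against 4.66, 4.99, 5.13 and 0.685 CPM. In 3 olaparib libraries MYC was above each DMSO library, but replicate 4 was the lowest of all 8, so the groups overlapped. The log2 difference was 0.54 ± 0.43, and 0.90 without that replicate. The same library held the highest PVT1 level of its group and the lowest CASC8 level, with 7152552 counts in all. It was also the lowest for CASC19, by a narrow margin (2.33 against 2.34 CPM). Genes other than the members had extremes of the group there too, with PIM1, DERL1 and WT1 lowest and FBL and HUWE1 highest. How far this library departed from its group over all genes was not examined. The part of that library in the MYC value was not tested further.

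In UWB1.289 MYC had 14.0, 16, 12.8 and 15.1 CPM with DMSO and 12.9, 26.5, 24.1 and 22.7 CPM with olaparib. Again 3 olaparib libraries were above each DMSO library, and replicate 1 fell among the DMSO values. The log2 difference was 0.58 ± 0.18, and 0.76 without olaparib replicate 1. The difference between the lines in the olaparib difference of MYC was 0.04 ± 0.48, an error wide enough to hold a large difference in either direction.

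PVT1, the noncoding RNA downstream of MYC, had overlapping values in OVCAR3 and separate ones in UWB1.289. It had 11.2, 10.7, 11.3 and 13.1 CPM with DMSO and 10.4, 10.3, 9.40 and 13.2 CPM with olaparib, 2 overlapping groups with a log2 difference of −0.09 ± 0.16. In UWB1.289 it had 42.1, 36.7, 34.5 and 37.4 CPM with DMSO and 42.9, 47.7, 53.8 and 60.2 CPM with olaparib. Here each olaparib library lay above each DMSO library, the closest pair being 42.9 and 42.1 CPM, and the log2 difference was 0.45 ± 0.11 (1.36-fold). The microRNA genes MIR1204 to MIR1208, which lie within PVT1, had 0 counts in all libraries. Such short RNAs are not captured by 3′ libraries of polyadenylated RNA.

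The comparison of the 2 lines was tested for MYC, PVT1 and CASC8, but not for CASC19, whose own values chose the genes. All 4 genes that passed the filter were higher in UWB1.289 than in OVCAR3, with DMSO and with olaparib, and the groups of the lines did not overlap. The share of all genes whose groups were separate between the lines was not determined, so this separation is not read as particular to the 4 genes. With DMSO, MYC was 5.43-fold higher (log2 2.44 ± 0.23, adjusted p = 8.60e-11), PVT1 3.24-fold (1.70 ± 0.13, adjusted p = 4.83e-13) and CASC8 6.41-fold (2.68 ± 0.24, adjusted p = 3.38e-11) by edgeR's quasi-likelihood test with Benjamini-Hochberg adjustment over 13366 genes. CASC19, which passed the filter there only through UWB1.289, had 373 counts against 1, a depth-scaled ratio of 361 with a 95% counting interval from 64.4 to 14308. The 3 calls stand in a comparison in which 39.8% of all tested genes were higher and 40.1% lower in UWB1.289.

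In the olaparib libraries MYC, PVT1 and CASC8 passed again, and CASC19 was 10.6-fold higher in UWB1.289 (log2 3.41 ± 0.20, not tested). MYC was 5.57-fold higher (2.48 ± 0.33, adjusted p = 2.21e-06), PVT1 4.68-fold (2.23 ± 0.14, adjusted p = 1.24e-10) and CASC8 2.22-fold (1.15 ± 0.19, adjusted p = 2.46e-05). Of the 13398 genes tested there, 38.4% were higher and 38.1% lower in UWB1.289. The log2 line difference of MYC was thus 2.44 without and 2.48 with the drug, that of CASC8 2.68 and 1.15, and that of PVT1 1.70 and 2.23.

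**Figure D2:**
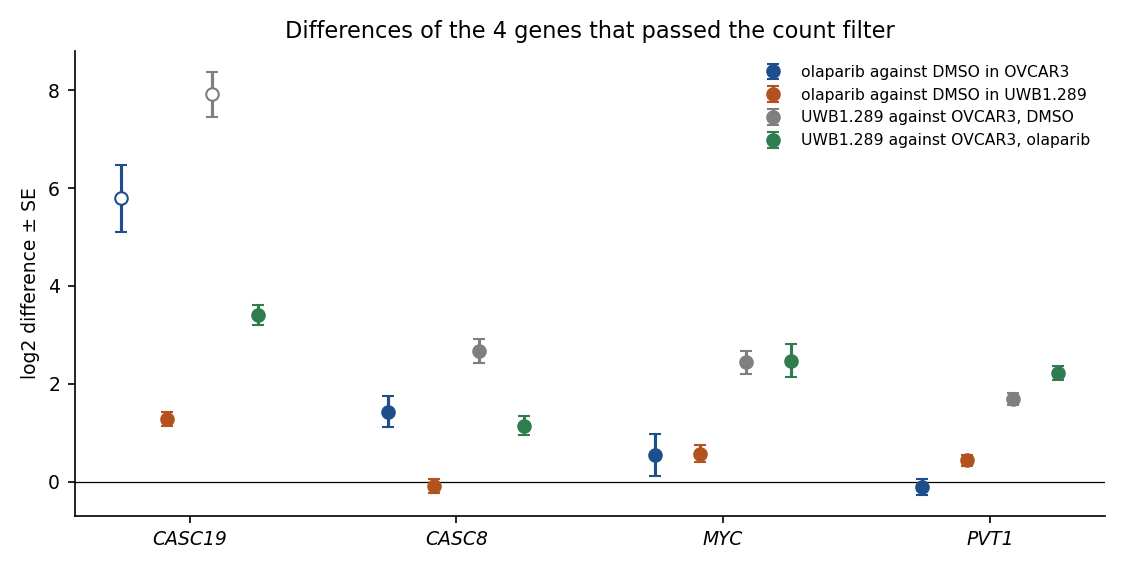
Log2 difference ± SE (vertical axis) of the 4 genes that passed the count filter in 4 comparisons of 4 against 4 libraries. Open circles mark the CASC19 values that rest on a group with 1 count in total, and they share that group. The line differences of all 4 genes are above 1, and the olaparib difference of CASC8 is 1.44 in OVCAR3 and −0.08 in UWB1.289.

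Of 46 listed neighbours, which start from 4954 kb before to 5567 kb after MYC, 24 were tested in OVCAR3, of which 4 rose and 7 fell with olaparib, against 15.5% and 16% of all 13031 genes tested. In UWB1.289 28 were tested, of which 5 rose and 2 fell, against 7.77% and 6.1% of 12748 genes. The median log2 difference of the neighbours was −0.09 in OVCAR3 and 0.05 in UWB1.289, beside −0.01 and −0.00436 over all genes.

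KCNQ3, a subunit of a voltage-gated potassium channel that starts 4746 kb beyond MYC, had the largest increase of the neighbours in OVCAR3. Its 4 DMSO libraries held 9 to 27 counts and its 4 olaparib libraries 68 to 125, a 5-fold increase (log2 2.32 ± 0.28, adjusted p = 3.49e-06). In UWB1.289 it rose 1.44-fold (0.52 ± 0.14, adjusted p = 0.0219), and it was the only neighbour that rose in both lines. ATAD2, a chromatin-bound ATPase, rose in OVCAR3 (0.52) and fell in UWB1.289 (−0.22), and ASAP1, which acts on Arf GTPases, rose in OVCAR3 (0.46).

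FBXO32, part of a ubiquitin ligase, fell in OVCAR3 (log2 −0.94) and rose in UWB1.289 (0.56), and so did NDRG1, a gene known to be repressed by MYC (−0.80 and 0.33). WASHC5, a subunit of the WASH complex, fell in OVCAR3 (−0.64). SQLE, squalene epoxidase of cholesterol synthesis, fell in both lines (−0.51 and −0.32). In UWB1.289 the largest increases were those of MTSS1, an actin-binding scaffold (0.87), and TRIB1, a pseudokinase (0.73).

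Close to MYC few other transcripts were abundant enough to test. LRATD2, a protein-coding gene 1177 kb before MYC, fell in OVCAR3 (−0.52, adjusted p = 0.00998) and did not pass in UWB1.289 (0.09, adjusted p = 0.688). PCAT1, a noncoding RNA that spans CASC19 on the other strand, had 21 counts with DMSO and 9 with olaparib in OVCAR3, below the filter, and 50 and 81 in UWB1.289 (log2 0.82 ± 0.33, adjusted p = 0.131). PRNCR1, which overlaps CASC19 on the other strand, had 8 and 2 counts in OVCAR3 and 25 and 14 in UWB1.289, so that it was not higher with olaparib where CASC19 was. CASC11, on the strand opposite to MYC, had 13 and 2 counts in OVCAR3 and 24 and 15 in UWB1.289. GSDMC, a pore-forming gasdermin downstream, had 60 counts in each UWB1.289 group, CCDC26 at most 2 counts in any library, and CCAT2 had 0 in all.

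**Figure D3:**
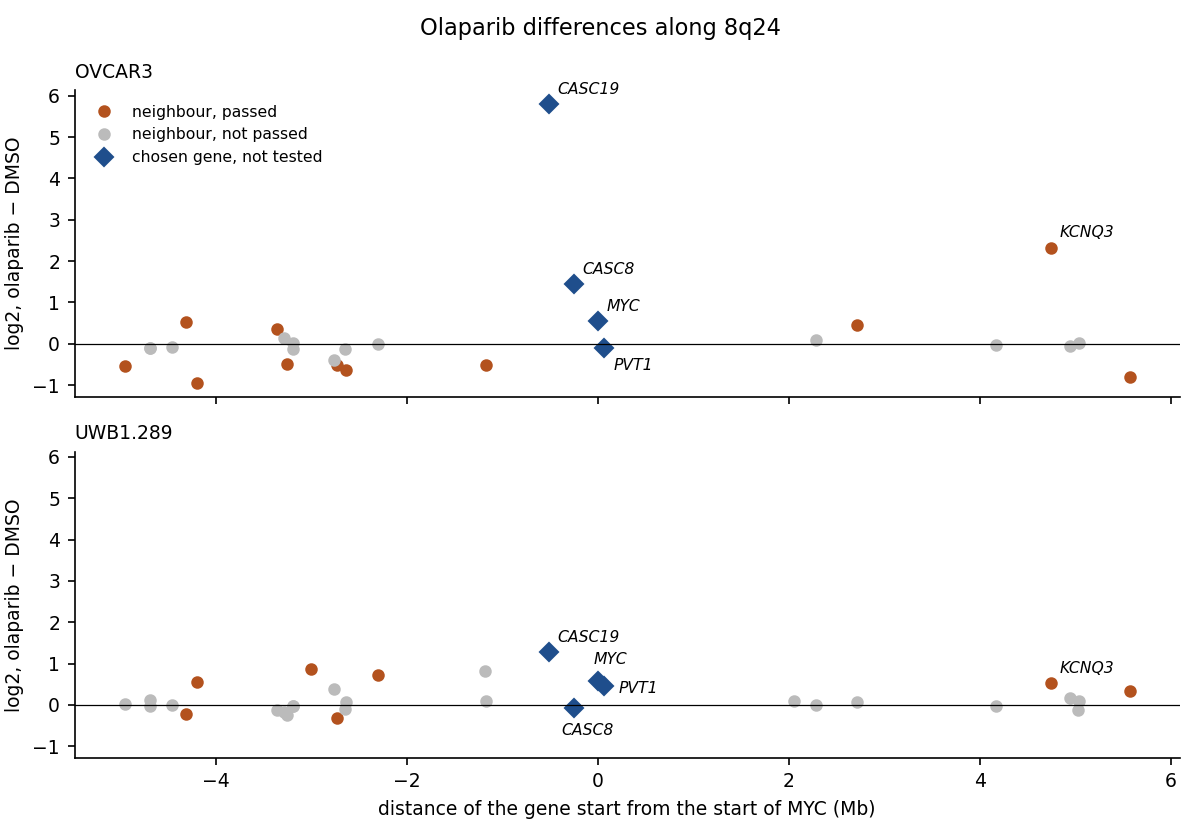
Olaparib difference (log2, vertical axis) of genes at 8q24 against the distance of their start from that of MYC (Mb, horizontal axis) in OVCAR3 (top) and UWB1.289 (bottom). Diamonds are the chosen genes, which were not tested, and circles their neighbours. KCNQ3 (2.32) and CASC19 stand above the other genes in OVCAR3, and genes between them lie nearer to 0.

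The partners and regulators of MYC were examined as a list of 25 genes. In OVCAR3 5 of 24 tested genes rose and 3 fell, shares near the 15.5% and 16% of all genes, with a median log2 difference of 0.05. MYCL, a paralogue of MYC that was clearly expressed in OVCAR3 with DMSO (25.2 ± 2.51 CPM), fell to 10.7 ± 3.11 CPM (log2 −1.22 ± 0.17, adjusted p = 2.00e-05). KAT5, an acetyltransferase recruited by MYC (−0.51), and MXI1, an antagonist that competes for MAX (−0.46), fell too. CIP2A, which protects the MYC protein from dephosphorylation (0.47), ZBTB17 (MIZ1), through which MYC represses genes (0.46), and WDR5, a chromatin cofactor of MYC (0.43), rose.

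In UWB1.289 MAX, the obligate partner, rose from 43.5 to 61.7 CPM (0.51 ± 0.09, adjusted p = 0.000922), KAT5 fell (−0.28, adjusted p = 0.0975), and the other 21 tested genes did not pass, where 7.77% of all genes rose and 6.1% fell. The KAT5 call was lost with DESeq2 (adjusted p = 0.113), without the filter (0.127) and in 7 of 8 fits that left out 1 library. With the replicate number as a block (paired libraries), 3 rose and 1 fell. MAX did not pass in OVCAR3 (−0.00260, adjusted p = 0.985). MYCN was scarce, with 33 and 34 counts in OVCAR3 and 18 and 25 in UWB1.289, and MYCL had only 28 and 41 counts in UWB1.289.

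Of the genes that MYC is known to activate, more rose than fell with all libraries, by small amounts. Of 61 tested genes of a list of 63, 16 rose and 1 fell in OVCAR3, where 15.5% of all genes rose and 16% fell. In UWB1.289 11 rose and 4 fell, where 7.77% of all genes rose and 6.1% fell. In OVCAR3 14 to 22 activated targets passed, up or down, in fits that left out 1 library. The UWB1.289 counts rest on single libraries: 4 rose and 3 fell without DMSO replicate 2, 5 and 2 without olaparib replicate 4, 6 and 2 without DMSO replicate 1, 7 and 1 without olaparib replicate 3, and 8 and 1 without DMSO replicate 4. The median log2 difference was 0.14 in OVCAR3 and 0.08 in UWB1.289, beside −0.01 and −0.00436 over all genes. In OVCAR3 the largest increases were TCOF1 and NOC4L, which serve ribosome production (both 0.72), and SRM, spermidine synthase (0.54). In UWB1.289 they were TFB2M, a mitochondrial transcription factor (0.71), SLC19A1, the reduced folate carrier (0.67), and RRP12, a ribosomal RNA processing factor (0.44). SLC29A2, a nucleoside transporter, fell in both lines (−0.74 and −0.31), and HSPE1, a mitochondrial chaperonin (−0.29), and MCM4, a subunit of the replicative helicase (−0.25), fell in UWB1.289. The UWB1.289 calls of RRP12, TFB2M, SLC29A2 and MCM4 were lost in 5, 5, 4 and 4 of 8 fits that left out 1 library, and among the neighbours those of ATAD2 in 5 and of MTSS1 in 1.

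NOP58, WDR43, RRP12, DDX21 and SLC19A1, which except for the folate carrier serve ribosome production, were the 5 activated targets that rose in both lines. The share of all tested genes that rose in both lines was not determined, so the number 5 is not read as an excess. Without UWB1.289 DMSO replicate 2 only 4 activated targets rose in that line, so not all 5 kept their call. RRP12 lost its UWB1.289 call in 5 of 8 fits that left out 1 library. The calls of NOP58, WDR43 and DDX21 were not checked gene by gene under the alternatives. The promoter table of RefSeq (GRCh38.p14, 250 bases before to 50 after each gene start) held 3 of these 5 genes. Each of the 3 held 1 E-box CACGTG, a motif that reads the same on both strands. The motif occurs in a promoter of 2396 of all 27305 genes there (8.77%). The sequences around this MYC motif are shown 5′ to 3′ on the strand of the gene, with the E-box in capitals. The WDR43 window is chr2:28894643-28894702 (plus strand, log2 0.30 in OVCAR3 and 0.34 in UWB1.289), the DDX21 window chr10:68956589-68956648 (plus strand, 0.44 and 0.26) and the SLC19A1 window chr21:45541797-45541856 (minus strand, 0.47 and 0.67).
WDR43: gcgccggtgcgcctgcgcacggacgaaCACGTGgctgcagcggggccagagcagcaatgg
DDX21: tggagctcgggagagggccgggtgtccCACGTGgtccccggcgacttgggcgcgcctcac
SLC19A1: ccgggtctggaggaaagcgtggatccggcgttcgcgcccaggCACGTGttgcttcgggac
The motif begins 31 bases before the start of DDX21 and at bases 4 and 33 of the WDR43 and SLC19A1 transcripts. A match is a description of the letters and does not show that MYC was bound. Of the 49 genes of the whole list that had a promoter in the table, 28 (57.1%) held the motif too, so it was common in the list as a whole. With promoters for 3 of 5 and 49 of 63 genes, a comparison with all promoters is void.

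Genes that MYC is known to repress moved in both directions in OVCAR3 and upward in UWB1.289. In OVCAR3 all 10 listed genes passed, 5 up and 5 down, and in UWB1.289 6 of 9 rose and 0 fell, with medians of 0.03 and 0.59 beside −0.01 and −0.00436 over all genes. Of all genes 15.5% rose and 16% fell in OVCAR3, and 7.77% and 6.1% in UWB1.289. CDKN1A, which encodes the cell cycle inhibitor p21, rose from 7.06 to 19.3 CPM in OVCAR3 (log2 1.44 ± 0.16, adjusted p = 1.60e-06) and from 3.40 to 7.10 CPM in UWB1.289 (1.07 ± 0.26, adjusted p = 0.0114). THBS1, thrombospondin 1, rose in both lines (2.26 and 1.07), CDKN2B, encoding p15, rose by 1.28 in OVCAR3 and GADD45A, a DNA damage response gene, by 1.14 in UWB1.289. GAS1 (−1.94), NDRG1 (−0.80) and NDRG2 (−0.57) fell in OVCAR3. CDKN1A and GADD45A are also known as targets of p53, which responds to DNA damage, so that the list is not specific to MYC.

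**Figure D4:**
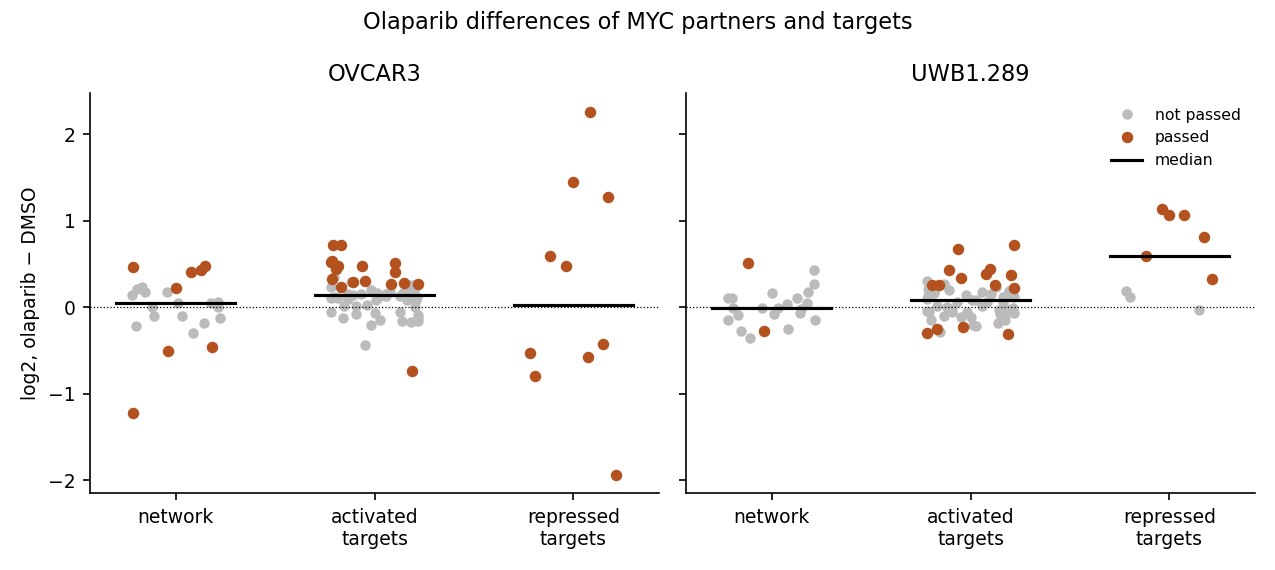
Olaparib difference (log2, vertical axis) of MYC partners, activated targets and repressed targets in OVCAR3 (left) and UWB1.289 (right), with 1 point per tested gene and a line at the median. Activated targets lie close to 0 with medians of 0.14 and 0.08, and repressed targets spread from −1.94 to 2.26 in OVCAR3.

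Between the lines with DMSO, 37 of the 61 activated targets were higher and 14 lower in UWB1.289, with a median log2 difference of 0.43 beside −0.02 over all genes, and 18 of 27 tested 8q24 neighbours were higher and 4 lower (median 0.52), where 39.8% of all genes were higher and 40.1% lower. With olaparib these counts were 38 and 15 of 61, and 20 and 4 of 28 neighbours (medians 0.48 and 0.61, beside 0.01), where 38.4% of all genes were higher and 38.1% lower.

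Of 10 genes of the Wnt and TCF pathway, 7 were tested in OVCAR3. TCF7 (log2 0.98), LEF1 (0.77) and CTNNB1, which encodes β-catenin (0.20), rose, and RNF43, a ligase that removes Wnt receptors, fell (−0.59). TCF7 and LEF1 were at a few CPM only, with means of 2.15 and 1.96 in DMSO, and LEF1 passed with edgeR (adjusted p = 0.0960) but not with DESeq2 (adjusted p = 0.133), without the filter or in the fit to all 16 libraries. Of 8 fits that left out 1 library, the call was lost in 7 for LEF1, 3 for CTNNB1, 3 for RNF43 and 1 for TCF7. Of all genes 15.5% rose and 16% fell. None of the 6 tested in UWB1.289 passed. Among pluripotency genes 0 of 2 passed in OVCAR3, and in UWB1.289 SOX2 fell (−0.91, adjusted p = 5.23e-05) while the other 2 did not pass.

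Over the 16 libraries, after the mean of each line was subtracted, the genes most like CASC19 among 14242 by Pearson's r of log2 CPM were PIP4K2A (0.974), PTX3 (0.968), BAZ1A (0.966), ACER3 (0.964) and TNF (0.958). For CASC8 they were FABP5 (0.943), ARSJ (0.939), MKX (0.932), PHLDA1 (0.925) and CTHRC1 (0.925). MYC was most like SDCBP (0.916), EMC1 (0.899), MRPL32 (0.892), DDX55 (0.887) and SRP19 (0.879), and PVT1 most like INTS6-AS1 (0.871), TNFRSF11B (0.868), RHBDD3 (0.865), GPR158 (0.843) and ELAVL2 (0.837). These correlations describe libraries that share treatment and depth. Among the members CASC19 and CASC8 were alike (0.752), MYC and CASC19 less so (0.326), and MYC and PVT1 were not (−0.06). The treatment was not subtracted, so these values include the olaparib differences. In UWB1.289 the means with DMSO and olaparib were 14.0 and 34.0 CPM for CASC19 but 15.0 and 14.2 CPM for CASC8. Only in OVCAR3 were both genes higher with olaparib. By rank correlation KCNQ3 (0.970) was also among the 5 genes most like CASC19.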

How the data were processed

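The deposited table holds raw read counts per gene, whole numbers that the authors had not normalized. According to their methods and the submitters' processing notes, QuantSeq 3′ reads were processed as single-end reads, trimmed with BBDuk, aligned to hg38 with STAR 2.7.9a in 2-pass mode and counted with featureCounts 2.0.0 and GENCODE release 38. How strand, multiply mapped reads and overlapping genes were handled is not given in the sources used here. Of 59428 genes 29329 had at least 1 count. All 16 libraries were used.

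Tests used edgeR 4.0.16 under R 4.3.3 on the 8 libraries of each comparison, with TMM scaling, the filter of filterByExpr and quasi-likelihood F tests, and p-values were adjusted over all genes tested by the Benjamini-Hochberg method, so that a gene passed at an adjusted p below 0.1. The olaparib effects of the lines were compared as an interaction over 16 libraries. The scripts were tested on simulated counts. CPM values use TMM library sizes, and the counting interval and its floor of 3 counts cover counting error only.

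The members and gene lists were chosen with earlier results of these data known. The genes named were, per list and olaparib comparison, the 3 largest increases and decreases that passed, the neighbours between LRATD2 and GSDMC, the 5 genes most like each member with an average of 10 counts or more, and POU5F1, NDRG1, CDKN1A, MAX, MYCN and MYCL. PCAT1, whose start lies inside LRATD2, was counted as between them after its values were seen, and NOP58, WDR43 and DDX21, the second value of a gene named in 1 line and the rank correlation of KCNQ3 were also chosen then. Alternatives were DESeq2 1.42.0, its size factors, no filter, a replicate block, a fit to all 16 libraries, an adjusted p below 0.05, the limits of the study (more than 2-fold and an average count above 10), Spearman's rho, and leaving out each library. In UWB1.289 the deviations of same-numbered DMSO and olaparib libraries from their group means correlated at 0.134 to 0.247 over 9144 genes, which met the limit of 0.1 for pairs. Differently numbered libraries of that line correlated at −0.265 to 0.190, so the ranges overlapped and the pairing is uncertain. Values are from the fit without the block unless the block is named. CASC19 was not tested between the lines, since its values chose the genes.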

Additional observations from a re-analysis of the deposited data

Results flagged for a closer look

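The MYC level of 0.685 CPM in OVCAR3 with olaparib, replicate 4, was far below the 3 other replicates of its group, and the CASC8 level of 4.38 CPM in OVCAR3 with DMSO, replicate 2, far above the 3 others. Chance flags about 1 in 20 groups, and 15 groups of the members were examined.

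The olaparib effect differed between the lines for 24 of the 50 named genes that are not members, by the interaction test of edgeR over 16 libraries at an adjusted p below 0.1. The 50 include genes that could not be tested, such as CCAT2 and MIR1204 to MIR1208 with 0 counts in all libraries, so 50 is not the number of tests. Most of the 24 genes were named for a large effect in 1 line, which favours a difference. The count is therefore not read against the 10.9% of all 14243 genes that passed this test. As the effect in UWB1.289 minus that in OVCAR3 on the log2 scale, the neighbours on 8q24 had PCAT1 2.06 (adjusted p = 0.0499), FBXO32 1.51, NDRG1 1.13, TRIB1 0.75, WASHC5 0.71, LRATD2 0.61, ASAP1 −0.38, ATAD2 −0.74 and KCNQ3 −1.80 (adjusted p = 0.000265). PCAT1 rests on 21 and 9 counts in OVCAR3. The MYC network genes had MYCL 1.88, MXI1 0.64, MAX 0.51, WDR5 −0.43 and CIP2A −0.49, and the activated targets SLC29A2 0.44, MCM4 −0.48, TCOF1 −0.71 and NOC4L −0.77. The repressed targets had GAS1 2.10, GADD45A 0.66 and THBS1 −1.19, and the other lists CTNNB1 −0.32, SOX2 −0.87 and TCF7 −1.18. Dose, medium and line cannot be told apart in these values.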

How the results depend on the processing

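The direction of all 4 members that passed the count filter held in each comparison under each alternative. The line differences of MYC, PVT1 and CASC8, which were tested, stayed past the threshold. Without 1 library, the CASC19 log2 difference in OVCAR3 ranged from 5.47 to 7.39 (7.39 without DMSO replicate 4, which held its only count there). With the replicate block the member values moved little, for example to 0.46 (MYC, OVCAR3) and 0.55 (MYC, UWB1.289). In OVCAR3 same-numbered libraries correlated at 0.0588 to 0.184 over 9363 genes, so there the replicate numbers were not taken as pairs. Under the limits of the study 1 neighbour on 8q24, 1 MYC network gene, 0 activated and 4 repressed targets passed in OVCAR3, and 0, 0, 0 and 3 in UWB1.289. For the MYC network in UWB1.289, 2 genes passed, against 1 with DESeq2, without the filter or below 0.05, 4 with the replicate block and 1 to 5 without 1 library. For activated targets there, 15 passed, against 7 below 0.05 and 7 to 16 without 1 library (7 without DMSO replicate 2 or olaparib replicate 4). MAX in OVCAR3, at −0.00260, was 0.0043 with DESeq2, 0.00417 with its size factors and between −0.0333 and 0.0423 without 1 library. POU5F1 in UWB1.289 ranged from −0.0400 (without olaparib replicate 2) to 0.61 without 1 library. CTNNB1, LEF1, RNF43 and TCF7 in OVCAR3 and ATAD2, KAT5, MCM4, MTSS1, RRP12, SLC29A2 and TFB2M in UWB1.289 no longer passed under at least 1 alternative. The cause of these changes was not tested. POU5F1B could not be fitted, and 2 of the 5 genes most like CASC19 by Pearson's r were among the 5 by Spearman's rho, with 1 for MYC and 0 for CASC8. At this depth, a few counts per library decide the low values.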
